A study of Mus musculus with 4 samples.

Results

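The 470 distal RAD21 binding sites gained on differentiation were taken from the 11022 sites deposited for mouse embryoid bodies (EBs). They were selected on 4 properties. The EB summit, the base of highest read pile-up, lay on an autosome and in an intron or between genes. It was 1 to 200 kb from the nearest protein-coding transcription start. At least 12 EB RAD21 reads lay within 250 bp of the summit, and at most 6 embryonic stem cell (ESC) RAD21 reads. Of 10781 autosomal EB sites 8824 were distal in this sense, and the 470 gained sites made up 5.33% of them. Of the 7980 distal sites with 12 or more EB reads they made up 5.89%, and the other 8354 distal EB sites served as the comparison.

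RAD21 was mapped by chromatin immunoprecipitation and sequencing (ChIP-seq) in 4 libraries, with 1 RAD21 and 1 control library from undifferentiated R1/E ESCs (day 0) and from EBs grown from them for 12 days. Both cell types carried the same bacterial artificial chromosome that expresses RAD21 with a GFP tag beside the untagged gene, so the precipitated protein was the tagged copy. It was pulled down with a goat antibody against eGFP, and the controls were labelled as goat IgG isotype libraries although their descriptions speak of input DNA. EBs are aggregates in which cells of many lineages form side by side, so a site bound in few cells cannot be told apart from one bound weakly in many, and with 1 library per group no test between the cell types is possible.

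RAD21 is the kleisin subunit of cohesin, a protein ring that pairs sister chromatids until they separate and that extrudes chromatin loops. Cohesin has no DNA sequence preference of its own. It accumulates where CTCF, a zinc-finger protein bound to an asymmetric motif, stops its movement, and smaller amounts lie at active promoters and enhancers together with the loading factor NIPBL, Mediator and the transcription factors of the cell type.

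Stretches around 12 EB summits are shown to make visible the kinds of sequence found under the gained sites. They were chosen to show matches or the absence of matches, and their mix is not that of all gained sites. All are mm9, plus strand, 5′ to 3′, with capitals at matches. The first 4 hold a match to a CTCF weight matrix, which was learned from sites that were not gained and whose consensus reads GTGGCCACCAGGGGGCACCA. In Cwc27, Rgs1 and Mtap9 the match passed a threshold met by 1e-05 of genome positions, and in Chn1 one met by 1e-04.
Chn1, chr2:73583888-73584008: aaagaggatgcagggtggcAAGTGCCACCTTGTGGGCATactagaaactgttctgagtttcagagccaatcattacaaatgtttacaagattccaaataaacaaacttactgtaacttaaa
Cwc27, chr13:105471459-105471588: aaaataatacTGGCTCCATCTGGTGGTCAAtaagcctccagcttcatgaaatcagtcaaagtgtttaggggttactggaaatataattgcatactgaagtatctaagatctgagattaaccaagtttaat
Rgs1, chr1:146227324-146227448: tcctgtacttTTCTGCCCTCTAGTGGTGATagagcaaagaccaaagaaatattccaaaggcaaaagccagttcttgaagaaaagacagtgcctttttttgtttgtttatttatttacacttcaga
Mtap9, chr3:82154363-82154483: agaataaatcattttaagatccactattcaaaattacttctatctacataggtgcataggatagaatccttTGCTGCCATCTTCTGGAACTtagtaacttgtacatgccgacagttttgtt
The next 6 had no CTCF match at either threshold and hold short patterns of other transcription factors. In capitals are the patterns AGATAAG of GATA factors, TGANTCA of AP-1, GGAATGT of TEAD factors and CAGGAAGT of ETS factors, each on either strand, so that a match on the minus strand shows as its reverse complement.
Col3a1, chr1:45347621-45347853: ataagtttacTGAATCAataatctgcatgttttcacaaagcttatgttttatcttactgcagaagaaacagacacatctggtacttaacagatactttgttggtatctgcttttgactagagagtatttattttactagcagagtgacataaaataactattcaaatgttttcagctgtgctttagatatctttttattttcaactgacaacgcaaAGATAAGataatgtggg
Col3a1, chr1:45369567-45369760: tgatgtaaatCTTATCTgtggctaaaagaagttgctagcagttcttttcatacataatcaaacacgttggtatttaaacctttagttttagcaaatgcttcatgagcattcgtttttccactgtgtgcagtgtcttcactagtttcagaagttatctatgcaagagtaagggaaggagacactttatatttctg
Tgfb2, chr1:188480725-188480881: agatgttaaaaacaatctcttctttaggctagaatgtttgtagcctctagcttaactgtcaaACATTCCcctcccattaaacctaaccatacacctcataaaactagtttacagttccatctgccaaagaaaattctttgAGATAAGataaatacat
Slc44a1, chr4:53422460-53422648: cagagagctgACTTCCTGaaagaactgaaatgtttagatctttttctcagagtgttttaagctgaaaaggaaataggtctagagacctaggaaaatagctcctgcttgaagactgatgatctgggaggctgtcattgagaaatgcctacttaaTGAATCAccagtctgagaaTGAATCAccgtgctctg
Ncam1, chr9:49379958-49380088: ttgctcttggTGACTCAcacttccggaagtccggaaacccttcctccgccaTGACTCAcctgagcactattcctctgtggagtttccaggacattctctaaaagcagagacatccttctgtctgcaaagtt
Pld1, chr3:27863828-27863989: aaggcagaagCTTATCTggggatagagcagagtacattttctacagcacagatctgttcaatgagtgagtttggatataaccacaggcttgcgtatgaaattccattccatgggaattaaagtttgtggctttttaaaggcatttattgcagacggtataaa
The last 2 held neither a CTCF match nor any of these patterns, and have no capitals.
Sema5a, chr15:32176800-32176920: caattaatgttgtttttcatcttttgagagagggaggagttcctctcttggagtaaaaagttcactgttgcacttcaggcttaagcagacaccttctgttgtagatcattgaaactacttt
Bmper, chr9:22996200-22996320: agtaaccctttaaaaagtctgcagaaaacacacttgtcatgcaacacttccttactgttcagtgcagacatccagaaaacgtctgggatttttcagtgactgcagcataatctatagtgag
Each name is that of the gene with the nearest protein-coding transcription start.

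At the 470 gained sites the EB RAD21 reads ranged from 12 to 38 with a median of 14. The ESC RAD21 reads ranged from 0 to 6 with a median of 4. As these 2 counts chose the sites, the groups are apart by construction, and the summed, depth-scaled ratio of 6.71 describes the choice and is no test. With 13714772 autosomal reads in the ESC and 7740389 in the EB RAD21 library, the limits of 12 and 6 reads correspond to 1.55 and 0.437 reads per 1000000 autosomal reads (RPM) and to a scaled ratio of at least 3.54. The counts were low. Only 54 gained sites had 20 or more EB reads and the lower quartile was 12, the number required. Only 7 had no ESC read.

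The limits cut through a continuous range of counts, without a gap. A further 131 distal sites with at most 6 ESC reads held 11 EB reads, and 124 with at least 12 EB reads held 7 ESC reads. Just inside the EB limit were the sites near 2010111I01Rik and Bmper with 12 EB and 0 ESC reads and the site near 4930547N16Rik with 12 and 1. Just outside it were those near Zfpm2, Vmn1r224 and Thada with 11 and 0. Inside the ESC limit the sites near Mtap9, Pitrm1 and Gm4951 held 38, 30 and 30 EB reads and 6 ESC reads each. Outside it, sites near 2210009G21Rik, Ect2 and Rprd1b held 35, 32 and 30 EB reads and 7 ESC reads each. Of 4586859 autosomal windows of the same 501 bp width away from any deposited site, 385 (0.00839%) met both limits.

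**Figure D1:**
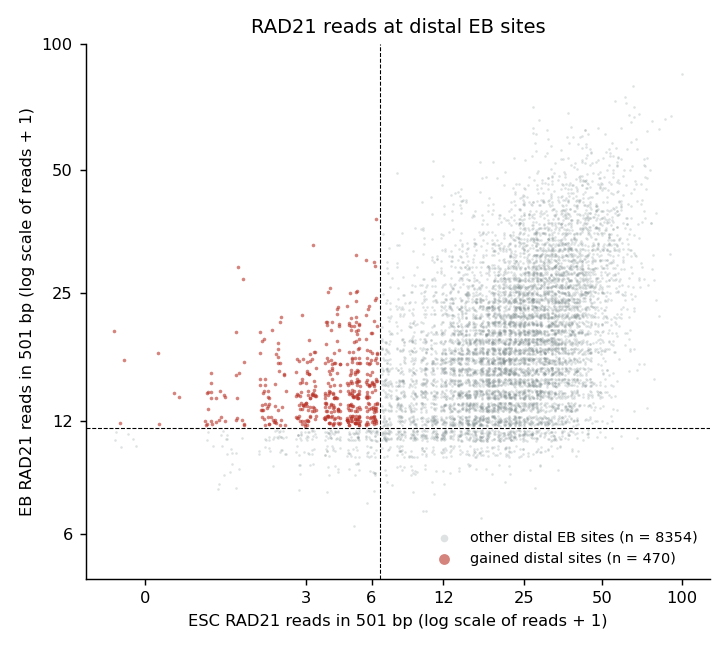
RAD21 reads within 250 bp of each distal EB summit, in ESCs (horizontal) and EBs (vertical), on log axes after adding 1 read, with points spread slightly within each count and dashed lines at the limits. The 470 gained sites fill the corner of 12 to 38 EB and 0 to 6 ESC reads, next to a continuous cloud of the 8354 other sites.

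The control libraries gave few reads at the gained sites. Neither entered the 2 read limits, but the EB IgG library was the control against which the EB sites had been called. EB IgG reads ranged from 0 to 9 with a median of 2, and ESC IgG reads from 0 to 11 with a median of 3. After scaling for depth the EB RAD21 library held 6.60 times the reads of the EB IgG library (95% interval 6.17 to 7.07). Intervals of read ratios cover the counting error of reads only. Those of shares and medians treat the sites as independent draws and take the chosen set as fixed. Because of that calling step, this ratio is no independent check of binding in EBs. In ESCs the RAD21 library held 1.11 times the IgG reads (1.04 to 1.19), where genome windows away from sites gave 0.957. The ESC reads were held low by the choice of sites, so this value is a description too. At the other distal sites the corresponding ratios were 9.15 in EBs and 6.59 in ESCs.

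The IgG reads at the gained sites were 1.13 times as dense in EBs as in ESCs (1.04 to 1.23). This ratio was 1.05 (1.03 to 1.07) at the other distal sites, and the quotient of the 2 ratios, 1.08, had an interval of 0.992 to 1.17. Base composition moved with these ratios. In genome windows with the GC content of the gained sites the EB library was the denser by 1.06 in IgG and 1.07 in RAD21, while at the GC content of the other sites these ratios were 0.927 and 0.924. Over the 5 GC classes these background ratios of EB to ESC reads fell from 1.32 below 38% GC to 0.636 at 50% GC and above for RAD21, and from 1.27 to 0.650 for IgG. The part of this gradient in the choice of sites was followed by scaling the counts within GC classes, given with the GC content below.

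Around the summits, EB RAD21 reads rose to 0.341 RPM per site in a 50 bp bin within 100 bp of the summit, 8.75 times the level 1.5 to 2 kb away. The ESC RAD21 reads at the same places rose 1.35-fold, against 1.30-fold for the ESC IgG and 1.39-fold for the EB IgG library. The limit of 6 ESC reads within 250 bp of the summit held the central ESC RAD21 level down, so its closeness to the controls describes the choice. At the other sites they rose 10.1-fold and the EB RAD21 reads 14.1-fold.

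**Figure D2:**
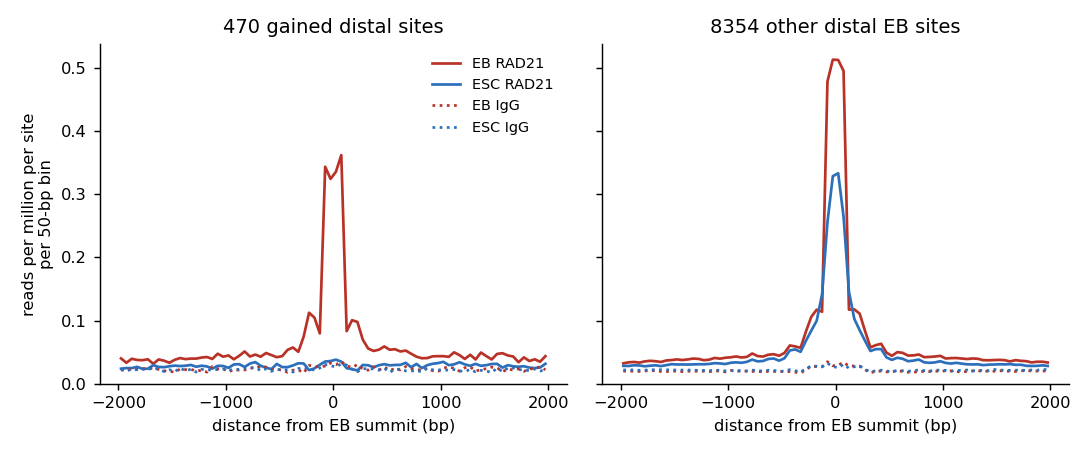
Mean RPM per site in bins of 50 bp, from 2 kb before to 2 kb after the EB summit, at 470 gained (left) and 8354 other distal sites (right). Solid lines are RAD21 and dotted lines IgG, EBs in red and ESCs in blue. The EB RAD21 peaks follow from calling the sites on the same reads. Over the gained sites the ESC RAD21 line, held down by the limit of 6 reads, stays close to both IgG lines, with a central rise of 1.35-fold.

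Among the sites of highest EB to ESC ratio, the one in an intron of Chn1, which encodes a Rac GTPase-activating protein of axon guidance, had 29 EB and 1 ESC RAD21 reads, with 4 EB and 1 ESC IgG reads. The scaled ratio was 51.4, with an exact interval of 8.52 to 2099 that shows how little a single read fixes. The site in an intron of Cwc27, a spliceosome-associated cyclophilin, held 27 and 1 reads (47.8, 7.89 to 1959), and that upstream of the choline transporter gene Slc44a1 held 20 and 1 (35.4, 5.67 to 1469). These sites differ in sequence, as the first pair carries a CTCF match and the last AP-1 and ETS patterns.

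Sites without an ESC read allow only a lower bound. Their EB reads were set against a floor of 3 ESC reads, the number that a count of 0 allows. This depth-scaled floor ratio leaves out the counting error of the EB reads. The exact lower limit of the scaled ratio is therefore given in brackets after it. The site 1402 bp upstream of Man1a, a Golgi mannosidase gene, held 20 EB reads (chr10:53796334-53797529), a floor ratio of 11.8 (8.75), with 5 EB and 4 ESC IgG reads. The site upstream of 2810008M24Rik (chr13:108833645-108834483) held 18, a floor ratio of 10.6 (7.79), with 0 and 3 IgG reads. In Sema5a, a semaphorin gene of axon guidance, 17 reads lay in an intron, 2002 bp from the start, a floor ratio of 10.04 (7.31). For Pld1, a phospholipase D gene, 14 intronic reads gave a floor ratio of 8.27 (5.88), as did 14 reads in an intron of Gata6. The sites of 2010111I01Rik and of Bmper, which encodes a secreted BMP-binding protein, held 12 EB reads each, a floor ratio of 7.09 (4.92). These 7 sites held 12 to 20 EB reads. As only lower limits of their ratios are known, they cannot be ranked among each other.

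By the deposited score, which is −10 times the log10 of the peak caller's p-value, other sites led. The site 7571 bp upstream of Mtap9, a microtubule-associated protein gene, had the highest score, 334.82, with 38 EB and 6 ESC reads, 0 EB and 4 ESC IgG reads and a scaled ratio of 11.2 (4.71 to 32.5). Next came sites near Zfp516 (308.73, 22 and 5 reads), Aldh1a7 (266.92, 17 and 3), Atpbd4 (225.16, 24 and 6) and Rgs1 (209.96, 31 and 5). Strong CTCF matches lay under the sites of Mtap9, Aldh1a7 and Rgs1, and none under those of Zfp516 and Atpbd4. The Zfp516 site is 1 of 14 gained sites that overlapped a deposited ESC site in spite of their low ESC counts around the EB summit, against 6216 of the 8354 others. The gained sites scored lower than the rest, with a median of 68.4 against 102.5, and were narrower, with a median of 680 against 762 bp. Both values come from the EB reads that chose them.

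CTCF motifs were far scarcer under the gained sites than under the other distal EB sites. A match at the strict threshold lay within 150 bp of the summit at 39 of 470 gained sites, or 8.30% (exact interval 5.97 to 11.2%), and at 46.6% of the others. The difference was −38.3 percentage points (Newcombe interval −40.7 to −35.2). At the lenient threshold 164 gained sites, 34.9% (30.6 to 39.4%), and 84.2% of the others held one, a difference of −49.3 points (−53.6 to −44.9). Genome windows away from sites held a match at 0.296% and 2.75%, so both sets lay above the genome. A missing match says only that the window does not hold such a sequence, since CTCF binding was not measured in these files. The size of the share depended on the limits. The strict share of the gained sites was 19.4% with reads counted within 150 bp, 18.8% with limits of equal RPM, 22.2% with IgG reads subtracted and 3.57% with limits of 15 and 3 reads, each below the share of the other sites.

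GC content and EB reads also differed between the sets. Weighted to the GC content of the gained sites, the others held a strict match at 42.9% and a lenient one at 82.4%. Weighted to the EB reads of the gained sites, a weighting chosen after seeing the data, they held one at 45.99% and 83.8%. The best matrix score within 150 bp had a median of 3.10 bits at the gained and 18.1 bits at the other sites.

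Read the other way round, 306 of the 1262 distal sites with 12 or more EB reads but no CTCF match were gained, or 24.2% (21.9 to 26.7%). Of 3036 with a match that passed only the lenient threshold 4.12% were gained, and of 3682 with a strict match 1.06% (0.754 to 1.45%), where 5.89% of all such sites were. GC content showed a second gradient, from 12.9% gained below 38% GC to 1.93% at 50% GC and above. It was seen both without a CTCF match, where the share fell from 37.1% to 12.1% between these GC classes, and with one, from 6.73% to 0.690%. The background ratio of EB to ESC RAD21 reads fell over the same classes, from 1.32 to 0.636. Introns held the larger share as well, 7.57% against 4.59% between genes, and again both without a CTCF match (30.2% against 19.4%) and with one (3.15% against 1.89%).

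**Figure D3:**
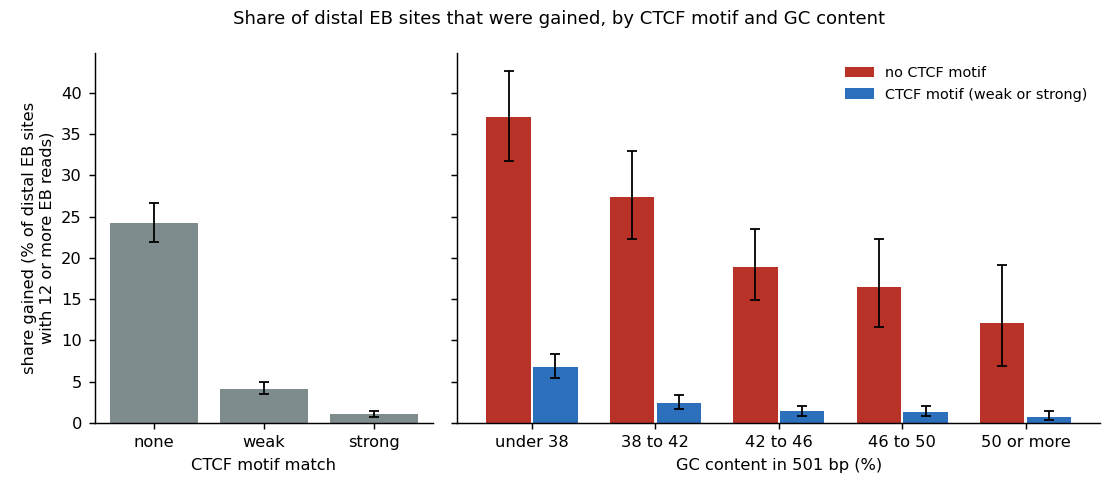
Share of distal EB sites with 12 or more EB reads that were gained, in percent with 95% intervals, by CTCF match (left; weak means the lenient threshold only) and by GC content with and without a match (right). The share fell from 24.2% without a CTCF match to 1.06% with a strict one, beside 5.89% over all 7980 sites.

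With lenient matches, the orientation of the motif relative to the summit was seen at the gained sites too, less marked than elsewhere. Where the consensus is read 5′ to 3′ as printed above, RAD21 summits of the other distal sites with a lenient match lay on the 3′ side of its centre at 74.2%, with a median of 43.5 bp. At the gained sites 99 of 164 summits did, 60.4% (52.4 to 67.9%), with a median of 36.5 bp (19.5 to 46.5). The difference was −13.8 points (−21.5 to −6.54). With the strict threshold the same comparison gave 23 of 39, 59.0% (42.1 to 74.4%), against 73.6%. The median at these 39 gained sites was 30.5 bp (−19.5 to 42.5), so the strict matches alone do not show a side.

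**Figure D4:**
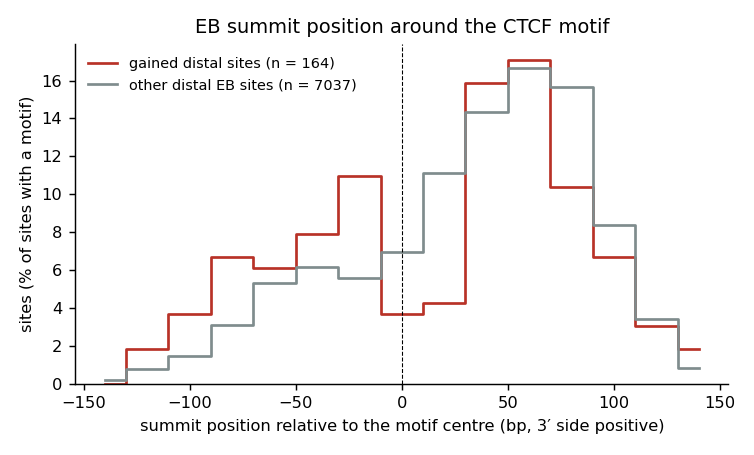
Distance from the centre of the best CTCF match (lenient threshold) to the EB summit in bp, positive toward the 3′ side of the motif, as shares of sites. Both sets peak on the positive side, with medians of 36.5 bp at 164 gained and 43.5 bp at the other sites.

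A minority of the transcription factor patterns differed in frequency under the gained sites. Of 23 patterns searched on both strands within 150 bp, 5 were more and 2 less frequent than at the other distal EB sites with a 95% interval that left out 0, and 4 of the 7 kept this with intervals widened for 23 comparisons. Those 4 were GATA, AP-1, TEAD and MEF2. Most patterns, 16, gave intervals that included 0. The calls depended on the counting window. With reads within 150 bp, GATA (+0.70 points, −1.02 to 3.28), AP-1 (+2.48, −0.472 to 6.15), TEAD (+1.44, −0.634 to 4.35) and ETS (+0.992, −0.419 to 3.29) gave intervals that included 0, and that of MEF2 (0.379 to 3.34 points) did not. With limits of 15 and 3 reads, which left 56 sites, no pattern left out 0.

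AGATAAG, the pattern of the GATA factors that direct endoderm, heart and blood, lay at 35 gained sites, 7.45%, and at 3.72% of the others (+3.72 points, 1.64 to 6.48). TGANTCA, bound by Jun and Fos dimers, lay at 68 sites, 14.5%, against 9.61% (+4.86, 1.89 to 8.38). GGAATGT, bound by the TEAD partners of YAP, lay at 41 sites, 8.72%, against 4.79% (+3.94, 1.66 to 6.87). All 3 were also more frequent than in genome windows away from sites, which held them at 4.37%, 8.85% and 4.11%. TAAAAATAG, a pattern of the MEF2 factors of muscle, lay at 11 sites, 2.34% against 0.610% (+1.73, 0.684 to 3.54), and CAGGAAGT of ETS factors at 19, 4.04% against 2.27% (+1.77, 0.289 to 3.97). Weighting the others to the GC content of the gained sites gave 4.18% for GATA, 10.2% for AP-1, 4.67% for TEAD, 0.991% for MEF2 and 2.02% for ETS.

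The 2 less frequent patterns were CACTTGA of NKX2 factors, at 10 sites, 2.13% against 4.78% (−2.65, −3.73 to −0.850), and GGGTGTGG of Krueppel-like factors. The latter lay at 0 of 470 gained sites, which allows a share of up to 0.638% by a floor of 3 sites, and at 1.20% of the others (−1.20, −1.45 to −0.359). TGTTTAC of forkhead factors was found at 6.38% and 4.96%, with an interval of −0.510 to 4.05 points that included 0. TCAAGGTCA of ESRRB, a factor of the pluripotent state, was also at 0 gained sites, but 0.575% of the others held it and the interval, −0.761 to 0.248 points, included 0.

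**Figure D5:**
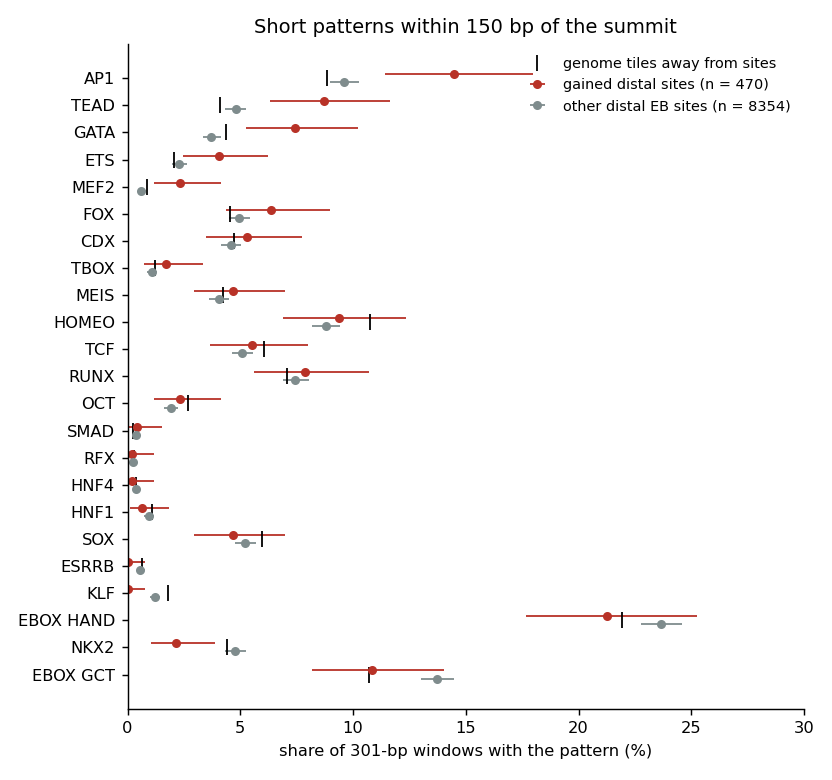
Share of windows of 301 bp around the summit with each of 23 short patterns, in percent, at 470 gained (red) and 8354 other distal EB sites (grey), with 95% exact intervals. Black ticks give genome windows away from sites. GATA, AP-1, TEAD, ETS and MEF2 lie to the right of the other sites, and NKX2 and KLF to the left.

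GATA, AP-1, TEAD, MEF2 and ETS had lower shares beside the gained summits than at them. As these patterns were picked for high shares at the same summits, this is a description only. In windows centred 1 kb to each side of the gained summits, a comparison added after seeing the data, GATA lay in 3.40%, AP-1 in 8.30%, TEAD in 3.83% and ETS in 2.23%, close to the 3.85%, 8.70%, 3.90% and 2.28% beside the other sites. MEF2 lay in 1.28% against 0.718%. For MEF2 and ETS the exact intervals at and beside the gained summits overlapped. NKX2 and KLF went the other way, with 4.79% and 1.70% beside the gained summits against 2.13% and 0% at them. For the 7-base pattern of AP-1 without the free base, TGACTCA, also added later, the shares at the summits were 9.57% and 5.57% (+4.01 points, 1.61 to 7.04).

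The gained sites were also compared with and without a CTCF match. Among the 306 of them GATA reached 9.80% against 5.01% of the 1317 others without a match (+4.79, 1.65 to 8.78), and AP-1 18.6% against 11.6% (+7.01, 2.64 to 12.0). TEAD (9.48% against 5.69%) and ETS (5.23% against 2.20%) were also more frequent there. Of the 4 patterns more frequent in this subset with an interval that left out 0, 2 kept this with intervals widened for 23 comparisons. Among the 164 gained sites with a lenient match, GATA was at 3.05% against 3.48% and AP-1 at 6.71% against 9.24%. TEAD was at 7.32% against 4.62% in that subset. There 1 pattern, MEF2, was more frequent with an interval that left out 0, at 3.66% against 0.583% (+3.08, 1.09 to 7.17), and 1, NKX2, less frequent, at 1.22% against 4.72%. Whether the differences with and without a CTCF match differ from each other was not tested. At least 1 of the 5 patterns GATA, AP-1, TEAD, MEF2 and ETS, a set put together after their values were seen, lay at 114 of the 306 sites without a CTCF match (37.3%), against 22.9% of the others without one. Among sites with a lenient match the shares were 21.3% (15.3 to 28.4%) and 18.9%. As the 5 patterns were picked for their higher shares, these values are a description only.

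The reverse set, which was added after seeing the data, gave the contrast with sites lost on differentiation. It held 742 of 12562 distal ESC sites (5.91%), with at least 22 ESC and at most 3 EB reads. Of the 23 patterns, 7 were more and 2 less frequent at the gained than at the lost sites with an interval that left out 0. With intervals widened for 23 comparisons 4 kept this, those of GATA, TEAD, MEF2 and Krueppel-like factors. The others, AP-1 and ESRRB among them, did not. MEF2 lay at 0.270% of the lost and 2.34% of the gained sites (+2.07, 0.822 to 3.88). Of these lost sites 55.0% had a strict CTCF match, against 8.30% of the gained ones (−46.7 points, −50.8 to −42.1). Over all 12562 distal ESC sites this share was 49.8%, near that of the lost ones. GATA lay at 2.56% of the lost and 7.45% of the gained sites (+4.89, 2.41 to 7.77), TEAD at 2.83% and 8.72% (+5.89, 3.23 to 8.95) and AP-1 at 9.16% and 14.5% (+5.30, 1.61 to 9.24). The 2 less frequent patterns, of Krueppel-like factors and ESRRB, lay at 3.64% and 1.35% of the lost sites and at none of the gained ones (−3.64, −5.24 to −2.25, and −1.35, −2.46 to −0.331). ATGCAAAT of POU factors was at 2.34% of the gained and 2.02% of the lost sites, and AACAATG of SOX factors at 4.68% and 4.04%. Lost sites had a GC content of 46.3% in the median. Weighted to that of the gained sites, they held a strict CTCF match at 56.9%, GATA at 1.04%, TEAD at 3.60%, AP-1 at 5.30%, KLF at 1.60% and ESRRB at 0.761%.

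As chosen by raw counts, the gained sites were poorer in GC and CpG than other distal sites. Median GC content within 250 bp of the summit was 39.3% (38.5 to 40.1%) against 43.7%, with 41.5% in genome windows away from sites, and the ratio of observed to expected CpG was 0.191 (0.179 to 0.202) against 0.232. With counts scaled by GC class, 385 sites met the limits. Their median GC content was 43.1% (42.5 to 43.7%), near the 43.7% of the other sites above. CpG was not recomputed under this scaling. The strict CTCF share of these 385 was 7.79% (5.32 to 10.9%). Within each of 5 GC classes the lenient CTCF match was rarer at the gained sites. It was held by 41.4% against 79.9% below 38% GC, where 198 of the gained sites lay, and by 31.8% against 88.9% at 50% and above, where 22 lay.

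Introns held 264 gained sites, 56.2% (51.6 to 60.7%), against 43.3% of the others (+12.9 points, 8.26 to 17.4). Weighting to GC content or EB reads left the others at 45.4% and 42.7%. Of the intronic sites 254 lay within a protein-coding gene, and 214 in the gene whose start was nearest. The median distance to a protein-coding start was 24706 bp (20446 to 30631), similar to the 24467 bp of the other sites. The spread was wider, as 103 gained sites (21.9%) lay within 5 kb against 13.4% (+8.51 points, 4.93 to 12.5), and 67.4% within 50 kb against 72.6% (−5.15, −9.62 to −0.960). On the scale of sites with 12 or more EB reads, 9.46% were gained at 1 to 5 kb, 4.42% at 5 to 20 kb and 8.65% at 100 to 200 kb. Fewer lay upstream of their nearest start, 41.3% against 48.6% (−7.29, −11.8 to −2.66).

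Most gained sites stood alone among the EB sites, as most other distal EB sites did. None of their 501 bp windows overlapped, only 12 had another gained site within 10 kb and 42 within 100 kb. No other EB summit lay within 10 kb of 336 gained sites, and no ESC summit within 10 kb of 360. The limit of 6 ESC reads favours sites away from ESC summits, so the count of 360 describes the choice. Median distance to an ESC summit was 46296 bp at the gained and 57 bp at the other sites. The median distance to the next EB summit, 41682 bp (34920 to 53546), differed little from the 46080 bp of the other sites. The lower quartile of this distance was 7404 bp at the gained and 13925 bp at the other sites. Standing alone was thus not particular to the gained sites. The gained sites were spread over all autosomes, from 13 on chromosome 19 to 43 on chromosome 1. As a share of the distal EB sites of a chromosome they ranged from 3.41% on chromosome 6 to 8.33% on chromosome 16. Shares under 4% were seen on chromosomes 6 (3.41%), 8 (3.54%), 7 (3.57%) and 11 (3.96%). Chromosomes 6, 8 and 11 also had fewer background EB reads for each ESC read, with ratios of 0.837, 0.800 and 0.876 for RAD21 and 0.842, 0.813 and 0.877 for IgG in windows away from sites. On chromosome 7 these ratios were 0.948 and 0.967. The remaining chromosomes lay above both values, at 0.965 to 1.10 for RAD21 and 0.998 to 1.10 for IgG. The part of these ratios in the shares was not tested beyond scaling by chromosome, which left 408 sites, 384 of them among the 470.

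The gained sites lay nearest to 442 different genes, 414 of them nearest to a single site, 28 to a pair and 0 to 3 or more. Genes of 7 lists (pluripotency, cardiac and muscle, endoderm and liver, blood and endothelium, mesoderm and mesenchyme, neural, signalling), 288 in all with 278 found in the annotation, were nearest to 16 gained sites. That was 3.40% (1.96 to 5.47%) against 2.17% of the others, a difference of 1.24 points (−0.103 to 3.31) that includes 0. Counting every list gene with a start within 50 kb gave 18 sites, 3.83% against 2.38% (+1.45, 0.0108 to 3.61).

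Of the single lists, only the cardiac and muscle list had an interval that left out 0, with 5 gained sites, 1.06%, against 0.311% (+0.753 points, 0.127 to 2.16, not widened for the 7 lists). Its sites lay near Gata6 (a pair), Mef2c, Hand2 and Acta2. Gata6, a zinc-finger factor of endoderm and heart, had both sites in its introns, 20147 bp apart. The first held 14 EB and 0 ESC reads and an AP-1 pattern, and the second 13 and 4 reads with GATA and ETS patterns. The site in an intron of Mef2c, a regulator of heart and muscle genes, held 16 EB and 5 ESC reads and none of the 23 patterns.

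Pluripotency genes were nearest to 0 gained sites and to 10 of the others, an interval of −0.220 to 0.693 points that does not separate the sets. The remaining lists had 1 to 3 gained sites each. For mesoderm and mesenchyme, Col3a1, the gene of type III collagen, had a pair of sites 21974 bp apart. The upstream one (chr1:45347323-45348261) held 18 EB and 2 ESC reads, 15.9-fold (3.82 to 142), and the intronic one (chr1:45369234-45369945) 15 and 2, 13.3-fold (3.09 to 120). Both carried AGATAAG, as printed above. The site nearest Postn, the gene of the matrix protein periostin, held 20 and 6 reads and lay in an intron of Trpc4.

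Of the blood and endothelium genes, Ets1, which encodes an ETS factor, had an intronic site with 14 EB reads and 1 ESC read, 24.8-fold (3.77 to 1049). The sites near the VEGF co-receptor gene Nrp1 and the haematopoietic regulator gene Lmo2 had 14 and 13 EB reads and 6 ESC reads each. Lamc1, the laminin gamma 1 chain of basement membranes, was the single gene of the endoderm and liver list with a site (14 and 6). Gata6, also a factor of endoderm, was counted in the cardiac and muscle list. Ncam1, a neural cell adhesion molecule, was the single gene of the neural list (13 and 5, with 2 matches to TGACTCA). For signalling genes, the site upstream of the Wnt receptor gene Fzd1 held 16 and 1 reads, 28.3-fold (4.40 to 1189). That of Tgfb2, a TGF-beta ligand, held 14 and 3 with GATA and TEAD patterns, and that of the ligand gene Wnt5a 13 and 6. The sites with 5 or 6 ESC reads lie at the limit of the choice and have scaled ratios of 3.84 to 5.91, while those of Fzd1, Ets1 and Col3a1 stand further from it, with wide intervals.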

How the data were processed

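RAD21 ChIP-seq was done on a RAD21 BAC-GFP tagged R1/E ESC line and on its day 12 hanging-drop EBs, with 1 RAD21 and 1 IgG library each (12602155 autosomal ESC and 6929293 EB IgG reads). The authors deposited aligned 35 base reads on mm9 (build as in the submitters' processing notes), 1 line per read, without repeated reads at a position and strand of the chromosomes. The aligner is not given in the sources used here. The authors called sites with MACS in each cell type against its IgG library. The deposited score is −10 times the log10 p-value, and the deposited signal at the summit is the unscaled height of piled-up reads. With 1 library of each kind per cell type, no interval covers variation between libraries. Intervals of read ratios cover the counting error of reads. Those of shares and medians treat sites as independent draws and leave out the uncertainty of which sites were chosen. The EB IgG file ended on chromosome X at position 95592993, so the autosomes alone were compared, and 8 broken lines over all libraries were skipped.

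Reads were shifted downstream by 100 bp and counted if they then lay within 250 bp of an EB summit. Sites were placed with GENCODE vM1, whose genome matched the build. Within 1 kb of any start a summit was classed as start, otherwise as exon, intron or intergenic. RPM are reads per 1000000 autosomal reads of a library. Genome windows of 501 bp lay at least 2 kb from any deposited site. Sequence was searched within 150 bp of the summit on both strands. The CTCF matrix of 20 positions was learned on sites of both lists that were not gained, on odd chromosomes and applied to even ones, and the reverse. Shares have exact (Clopper-Pearson) intervals, differences of shares Newcombe intervals, read ratios exact conditional binomial intervals and medians order-statistic intervals, all at 95%. No p-value across sites was computed. Scripts (Python 3.11.15, numpy 2.4.6, pandas 2.3.3, scipy 1.17.1, pysam 0.24.0) were tested on simulated data.

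The members, patterns and gene lists were chosen with earlier results of these data known. Named sites were the 10 of highest (EB + 1)/(ESC + 1) read ratio, the 5 of highest score, up to 3 per gene list by EB reads, and the 3 just inside and outside each limit. Hand2 and Acta2 were named for completeness of a count of 5. Alternatives changed the window, shift, limits, IgG subtraction, scaling by GC class or chromosome, score, distance, gene types, and motif threshold and range. The weighting to EB reads, the strict AP-1 pattern, the windows 1 kb away and the reverse set were added after seeing the data. A planned share of repeat sequence was not computed, as the genome used here carries no repeat marks.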

Additional observations from a re-analysis of the deposited data

Results flagged for a closer look

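Chromosome X took no part in the comparisons, as its EB IgG reads ended early. It held 228 EB sites, 197 of them distal, and 18 of these met both count limits, 9.14% (exact interval 5.51 to 14.1%). The 5 of them before the last EB IgG read had 79 EB RAD21 reads, 7 EB IgG reads and 18 ESC RAD21 reads in sum. The EB RAD21 reads were 10.1 times the EB IgG reads after scaling for depth (4.68 to 25.9), which placed these sites above the control on a chromosome left out of the report. As the authors called the sites against IgG, the ratio is no independent check.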

How the results depend on the processing

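The rarity of the CTCF match at the gained sites (−49.3 to −23.4 points) and the larger intron share (9.31 to 14.7 points) kept their direction with intervals leaving out 0 under every alternative run for them, as did the 3′ side of summits (−26.5 to −7.24 points). The number of gained sites was 987 with limits of equal RPM, 56 with limits of 15 and 3 reads and 80 with a score of at least 100. Which sites were chosen depended on the window. Of 392 sites with reads within 150 bp and 355 within 400 bp, 197 and 252 were among the 470, and of 504 with IgG reads subtracted 220 were. Their CTCF share was 19.4% within 150 bp, 4.51% within 400 bp, 18.8% with equal RPM, 3.57% with 15 and 3 reads, 22.2% with IgG subtracted, 34.9% at the lenient threshold and 5.32% for matches within 75 bp. The EB to ESC IgG ratio was 1.07 within 400 bp, with an interval including 1, and 0.806 with IgG subtracted, a step that itself selects against EB IgG reads. Median GC content was 37.9% with 15 and 3 reads, 43.1% with scaling by GC class and 37.7% with the score limit. The median distance was 37725 bp for 5 to 200 kb and 31344 bp with starts of all gene types. The list gene difference left out 0 within 400 bp (2.96 points), with reads moved 75 bp (1.48), with scaling by chromosome (1.77) and for all starts within 50 kb (1.45), and was −0.684 with IgG subtracted. The patterns more frequent numbered 3 within 150 bp (of the reported 5, MEF2 alone), 0 with 15 and 3 reads and 1 with the score limit. The less frequent ones numbered 1 within 150 bp, within 400 bp, with IgG subtracted and with GC scaling, and 0 with 15 and 3 reads, the score limit and matches within 75 bp. The cause of these shifts was not tested. GATA lost its interval in 2 alternatives, MEF2 in 3, AP-1 and TEAD in 4 each, KLF in 5, NKX2 in 6 and ETS in 8, none changing direction. No paired analysis was possible because each group has 1 library. Low counts limit single sites most, and 1 library per cell type leaves differentiation, culture and library preparation unable to be told apart.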
